A study of Homo sapiens with 16 samples.

Results

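The transcripts of 6 keratins and of vimentin were followed across 2 lung cancer cell lines, 2 genotypes and 2 culture conditions. The 7 genes, KRT7, KRT8, KRT18, KRT19, KRT80, KRT81 and VIM, were taken by symbol from tables of 18227 genes, and all 7 were found. They comprise 6 of the 16 genes in the tables with a keratin symbol, of which 4 members are type II and 2 are type I keratins, plus vimentin.

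RNA sequencing covered 16 libraries of A549 and H2023, both established human non-small cell lung cancer lines. Each line was sampled as wild-type cells and as cells labelled as a knockout of ZC3H12A, which encodes the mRNA-cleaving enzyme Regnase-1. Cells were kept for 3 days under normal culture or for 7 days under a stem-cell-enriched culture, so the culture and its length cannot be told apart. The design gives 8 groups of 2 libraries: A549 wild type, A549 labelled knockout, H2023 wild type and H2023 labelled knockout, each in both cultures. No agent other than the culture was named for any group. Titles of knockout-labelled libraries give 1 clone for each line, so the edit and other traits of that clone cannot be told apart. The clone is titled g2-3 in A549 and g2-1 in H2023, each set equal to Clone2-2. The titles do not say whether the 2 lines carry the same edit. Nothing in the labels says whether the 2 libraries of a group came from separate cultures, so the p-values measure the spread between these libraries, which may be technical.

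Keratins are the intermediate filament proteins of epithelial cells, and a filament is built from pairs of 1 type I and 1 type II chain. KRT8 (type II) and KRT18 (type I) are the standing pair of simple epithelia, with KRT7 and KRT19 added in glandular and ductal cells such as those of the airway. Vimentin, a type III filament protein that pairs with itself, is typical of mesenchymal cells and of many cultured cancer cells, and a shift from keratin to vimentin is a textbook sign of epithelial-mesenchymal transition.

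On GRCh38 with the GENCODE v29 annotation, 4 of the members lie in the type II keratin cluster on chromosome 12: KRT80 (chr12:52168996-52192000, minus strand), KRT7 (chr12:52232520-52252186, plus strand), KRT81 (chr12:52285913-52291534, minus strand) and KRT8 (chr12:52897187-52949954, minus strand). KRT18 (chr12:52948871-52952901, plus strand) is next to KRT8, and the 2 annotated spans overlap on opposite strands. KRT19 lies at chr17:41523617-41528308 on the minus strand, and VIM at chr10:17228259-17237593 on the plus strand. Whether the authors counted reads by strand is not given in the sources used here, so reads of overlapping genes could have been shared between them.

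Some members share sequence with near-identical genes, which bears on how far their values can be told apart. The coding sequence of KRT81, a hair keratin, was 94.2% identical to that of its neighbour KRT86 in the GENCODE v29 transcripts. For each member the transcript with the longest coding sequence was searched. Of its stretches of 50 bases, 44.6% for KRT81, 41.3% for KRT8 and 31.8% for KRT18 occurred in a transcript of at least 1 other gene. For KRT81 the main partner was KRT86 (38.4%), for KRT8 the pseudogene KRT8P3 (24.1%) and for KRT18 the pseudogene KRT18P11 (9.98%). With stretches of 100 bases the shares were 30.3% for KRT81, 7.56% for KRT8 and 0% for KRT18. KRT7, KRT19, KRT80 and VIM shared at most 1.79% of their 50-base stretches, so the levels of KRT8, KRT18 and KRT81 are the ones that counting could have split. The level listed for KRT86 was 0.661% to 2.21% of that of KRT81 in every library. The antisense genes were also low, with VIM-AS1 at 0.118% to 1.08% of VIM and KRT7-AS at 0.704% to 1.81% of KRT7.

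A promoter window of VIM is shown because vimentin was the member whose knockout-labelled libraries lay above wild type in all 4 comparisons. RefSeq gives the 250 bases before its start (GRCh38.p14, chr10:17227991-17228240, plus strand), and the capitals mark the only match to the GC box GGGCGG, the sequence bound by Sp1-type factors, at position -46 from the start:

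VIM: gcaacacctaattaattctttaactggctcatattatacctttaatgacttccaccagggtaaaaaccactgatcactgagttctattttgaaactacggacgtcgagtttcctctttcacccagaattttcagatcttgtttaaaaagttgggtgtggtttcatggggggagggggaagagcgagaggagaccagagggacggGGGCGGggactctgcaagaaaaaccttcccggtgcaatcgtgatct

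Both strands were searched. The GC box occurred in 42.5% of 34943 promoter windows of the same length. The E-box CACCTG (17.5% of windows), the AP-1 motif TGANTCA (6.59%) and TATAAA (10.8%) did not occur in this window. A match describes the letters only, since no factor's binding was measured. The window lies before 1 of 2 VIM starts that GENCODE v29 lists as principal (17228259 and 17229278 on chromosome 10), and the region before the other was not searched. The promoter table matched KRT8 and VIM.

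The tables hold TPM, transcript levels corrected for transcript length and scaled to a fixed total per library, which keep no record of depth, so the depth of each library is unknown. A level of 1 TPM was reached by 13824 to 14508 genes per library. The mitochondrially encoded share of TPM was 10.3% to 18.7% in normal culture, and in the enriched culture 19.5% to 25.6%. The targeted gene checked the labels unevenly: ZC3H12A stood at 30.7 and 34.9 TPM in wild-type A549 against 16.9 and 19.9 TPM in knockout-labelled A549, both in normal culture. In the other 3 comparisons both libraries labelled knockout were above both wild-type libraries, the widest gap being 26.4 and 32.5 TPM against 69.2 and 94.6 TPM in H2023 in enriched culture. An edit can leave mRNA in place, and the protein was not measured here, so these groups are called knockout-labelled libraries throughout. The epithelial markers EPCAM, CDH1 and CLDN7 summed to 19.1 to 98.9 TPM over all libraries, and no library had any of them at 0. Of the lung markers chosen for the check, NAPSA and ABCA3 were measured (2 of 8), summing to 9.3 to 59.3 TPM, and the surfactant genes and NKX2-1 were not analysed here.

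KRT8 and KRT18 were among the most abundant transcripts of every library, with KRT8 ranking between place 14 and 168 and KRT18 between place 21 and 191 of 18227 genes by TPM. KRT7 ranged from 630.2 to 2863 TPM, KRT81 from 499 to 2844 TPM and VIM from 161 to 1405 TPM. KRT80 was lower, from 0.52 to 75.6 TPM. KRT19 varied most among the 7 genes, from 0.29 to 798 TPM, a ratio of 2751 between the highest and lowest library. The 6 keratins together held 98.2% to 99.6% of the TPM of all 16 keratin genes. Since TPM are scaled per length, these levels can be set beside each other, with less certainty for KRT8, KRT18 and KRT81, which share sequence with other genes. In bulk RNA, fewer cells that express a gene and less RNA per cell cannot be told apart.

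**Figure D1:**
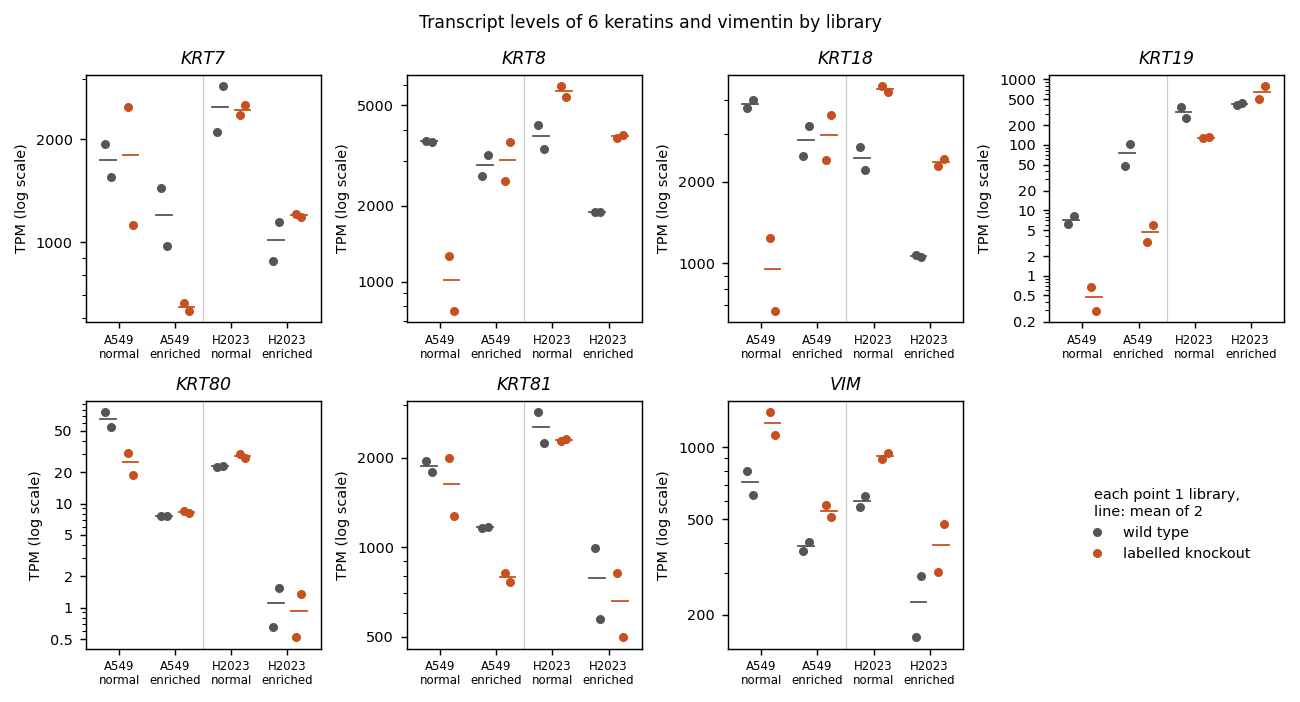
TPM (log scale) of each of the 7 genes in each library, grouped by line and culture on the horizontal axis, with wild type in grey and the knockout-labelled libraries in orange; short lines are means of 2 libraries. KRT8 and KRT18 have their lowest group means in the A549 libraries labelled knockout in normal culture (666 to 1259 TPM), where KRT18 overlaps with H2023 wild type in enriched culture, KRT19 spans 0.29 to 798 TPM, and the orange VIM points lie above the grey ones in each of the 4 line and culture pairs.

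The first question was how the filament transcripts differ between libraries labelled knockout and wild type within each line and culture. In A549 in normal culture, 4 of the 7 members fell (KRT8, KRT18, KRT19 and KRT80) and none rose, where 10.8% of all genes were called by limma on log2(TPM + 1) at an adjusted p under 0.05 (6.28% lower, 4.54% higher). In A549 in enriched culture, 2 members fell (KRT19 and KRT81) and none rose, against 13.2% of all genes (7.20% lower, 6.04% higher). In H2023 no gene passed in either culture (0.00% of 18227 genes), although 3314 genes (18.2%) in normal and 2828 (15.5%) in enriched culture reached an unadjusted p under 0.05. In the authors' deposited table the called share was 22.1% of genes in A549 normal, 20.7% in A549 enriched, 10.8% in H2023 normal and 5.07% in H2023 enriched culture. With 2 libraries a group, leaving out any 1 of the 4 leaves a lone library in 1 group. Every member call in A549 ended in such fits, in both cultures. These fits call few or no genes of the whole table, so the loss does not single out the members. In A549 normal culture the log2 estimates then ranged from -2.23 to -1.51 for KRT8 and from -2.54 to -1.64 for KRT18. Those of KRT19 ranged from -2.67 to -2.28 and those of KRT80 from -1.71 to -1.025. In A549 enriched culture they ranged from -4.23 to -3.13 for KRT19 and from -0.604 to -0.514 for KRT81. In each of the 4 comparisons the 2 groups did not overlap for 5 of the 7 members, as for 61.7%, 60.5%, 50.6% and 47.5% of all genes in the order given.

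**Figure D2:**
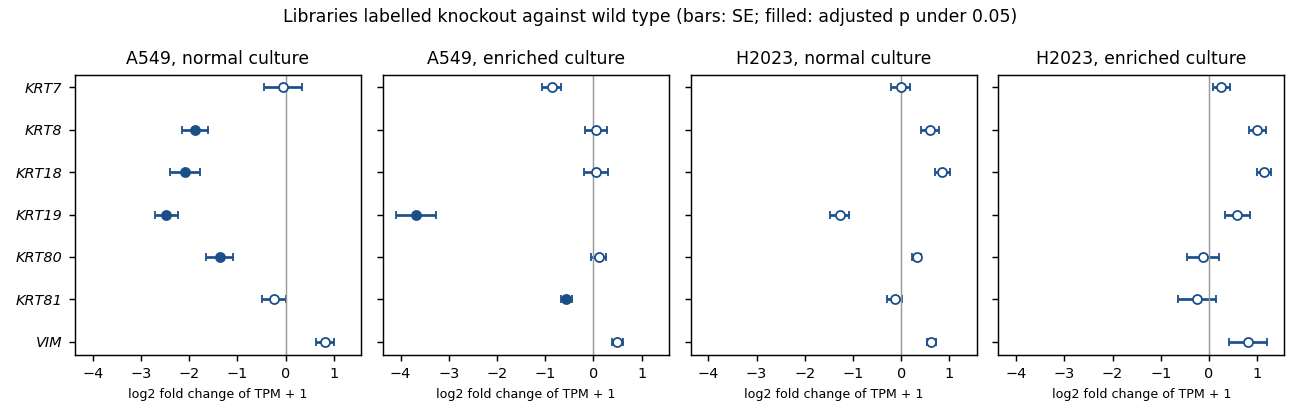
Log2 fold change (TPM + 1) of the knockout-labelled libraries over wild type, with SE, for the 7 genes in the 4 line and culture pairs; filled points passed an adjusted p of 0.05. KRT8 and KRT18 lie near -2 in A549 normal culture, near 0 in A549 enriched culture and above 0 in H2023, and VIM lies between 0.49 and 0.82 in all 4 panels.

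The partner keratins KRT8 and KRT18 differed together, falling in the A549 libraries labelled knockout in normal culture and standing higher than wild type in those of H2023. In A549 in normal culture KRT8 stood at 3626 and 3569 TPM in the wild-type libraries against 1259 and 765 TPM in the knockout-labelled libraries. KRT18 stood at 3749 and 3995 TPM in the wild-type libraries against 1242 and 666 TPM in the knockout-labelled libraries. Both libraries labelled knockout were far below both wild-type libraries, replicate 2 more so. In that group replicate 2 was below replicate 1 for every member, including KRT7 (1121 against 2486 TPM) and VIM (1123 against 1405 TPM). KRT8 fell by 1.87 on the log2 scale (SE 0.27, limma adjusted p = 0.0206) and KRT18 fell by 2.09 (SE 0.32, adjusted p = 0.023), a 3.55-fold lower mean for KRT8. The authors' deposited table gave log2 fold changes of -1.78 (adjusted p = 4.28e-15) and -1.96 (adjusted p = 0.000166).

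In A549 in enriched culture the pair did not separate by genotype. KRT8 stood at 2617 and 3188 TPM in the wild-type libraries against 2499.7 and 3578 TPM in the knockout-labelled libraries, and KRT18 at 2484 and 3210.45 TPM against 2406 and 3531 TPM. The groups overlapped for both genes, with a log2 difference of 0.05 for each (SE 0.23 for KRT8 and 0.25 for KRT18, limma adjusted p = 0.91 and 0.924). The genotype difference, enriched minus normal culture, gave an interaction of 1.92 for KRT8 (SE 0.38, limma interaction adjusted p = 0.0296) and of 2.13 for KRT18 (SE 0.44, adjusted p = 0.033), where 6.65% of all genes were called in A549. The call was lost for KRT8 without any 1 of 5 of the 8 libraries and for KRT18 without any 1 of 6, with differences of 1.56 to 2.32 in those fits.

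In H2023 the pair was higher in the knockout-labelled libraries in both cultures, without passing the test. In normal culture KRT8 stood at 4190.3 and 3374 TPM in the wild-type libraries against 5982 and 5378 TPM in the knockout-labelled libraries, and KRT18 at 2674 and 2204 TPM against 4515 and 4273 TPM. In enriched culture KRT8 stood at 1892 and 1883 TPM against 3713 and 3828 TPM, and KRT18 at 1070.1 and 1055 TPM against 2286 and 2428 TPM. No library labelled knockout overlapped with wild type in any of these 4 cases. The log2 differences were 0.59 and 0.86 in normal and 1.00 and 1.15 in enriched culture (KRT8, then KRT18), with limma adjusted p between 0.155 and 0.236. One fit over all 16 libraries called both genes in enriched culture (adjusted p = 0.0294 and 0.0263), and a fit of genes with a mean of at least 1 TPM called KRT18 in normal culture (adjusted p = 0.0205). The authors' deposited table called both genes in both H2023 cultures, with adjusted p from 2.24e-09 to 0.000394.

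The genotype difference in normal culture had opposite signs in the lines, and H2023 minus A549 gave 2.47 for KRT8 (SE 0.33, adjusted p = 0.000868, limma interaction over 16 libraries) and 2.94 for KRT18 (SE 0.37, adjusted p = 0.000558), where 12.1% of all genes were called. KRT8 and KRT18 were thus lower than wild type in A549 and higher in H2023, and the difference between lines passed the test for both. In enriched culture the same contrast gave 0.95 for KRT8 (adjusted p = 0.072) and 1.10 for KRT18 (adjusted p = 0.0623), where 16.3% of genes were called. Without library 2 of the A549 group labelled knockout it passed for both (adjusted p = 0.0495 and 0.0467), and among genes with a mean of at least 1 TPM it passed for KRT18 (adjusted p = 0.0489).

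KRT8 over KRT18 lay between 0.893 and 1.15 in the 8 A549 libraries and between 1.26 and 1.79 in the 8 H2023 libraries, with no overlap between lines. Within H2023 the ratio moved with genotype and culture, without overlap between its 4 groups. It was 1.53 to 1.57 in wild type and 1.26 to 1.32 in the knockout-labelled libraries in normal culture, and 1.77 to 1.79 and 1.58 to 1.62 in enriched culture. Within A549 it was 0.893 to 0.967 in wild type and 1.01 to 1.15 in the knockout-labelled libraries in normal culture, and 0.993 to 1.05 and 1.01 to 1.04 in enriched culture. Over 16 libraries the log2 levels of KRT8 and KRT18 correlated with r = 0.91, and their deviations from the group means with r = 0.98. Each point is a pair of values from 1 library, so library-wide effects on TPM are shared, and with 2 libraries a group the deviations hold at most 8 independent values. KRT8P3, the processed pseudogene that shares most sequence with KRT8, stood at 0.163% to 0.277% of the KRT8 level in A549 and 2.59% to 2.90% in H2023. Whether this reflects reads of KRT8 or of KRT8P3 was not tested.

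**Figure D3:**
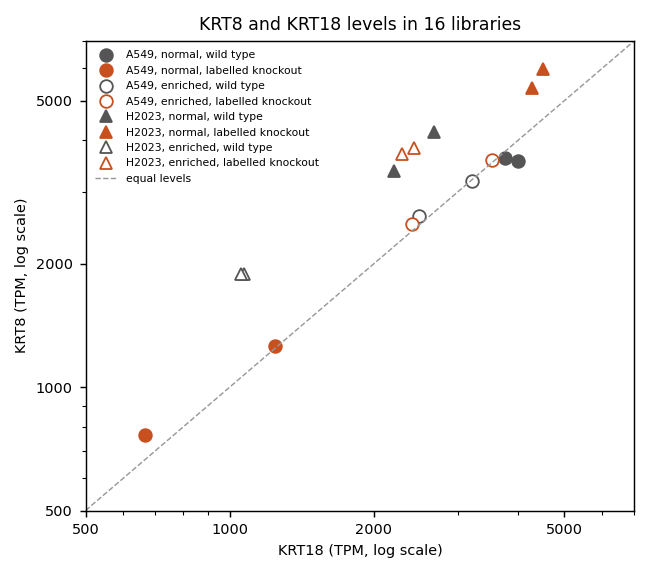
KRT8 against KRT18 (TPM, both axes log) in the 16 libraries; circles are A549, triangles H2023, filled symbols normal and open symbols enriched culture, grey wild type and orange labelled knockout. The A549 libraries lie along the dashed line of equal levels and the H2023 libraries above it, at ratios of 1.26 to 1.79.

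KRT19, a small type I keratin without a fixed type II partner, was lower in the knockout-labelled libraries in A549 and in H2023 normal culture. In A549 in normal culture it stood at 6.11 and 8.33 TPM in the wild-type libraries against 0.67 and 0.29 TPM in the knockout-labelled libraries. In A549 in enriched culture it stood at 46.8 and 101 TPM against 3.29 and 5.92 TPM. Both pairs of groups were wide apart, although the wild-type libraries of the enriched culture also differed between themselves. KRT19 fell by 2.47 (SE 0.24, limma adjusted p = 0.0108) and fell by 3.68 (SE 0.42, adjusted p = 0.00819), which on the TPM + 1 scale understates the change at these low values. The authors' deposited table gave log2 fold changes of -4.01 in normal and -4.07 in enriched culture.

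In H2023 in normal culture KRT19 stood at 374 and 258 TPM in the wild-type libraries against 126 and 130.5 TPM in the knockout-labelled libraries, a log2 difference of -1.27 that did not pass (limma adjusted p = 0.137). It passed among genes with a mean of at least 1 TPM (adjusted p = 0.0138) and in the authors' deposited table (adjusted p = 1.67e-11). In H2023 in enriched culture it stood at 406 and 441 TPM against 505 and 798 TPM, a difference of 0.58 in the other direction that did not pass. The groups did not overlap in either case. In enriched culture the genotype difference, H2023 minus A549, gave an interaction of 4.26 (SE 0.49, limma interaction adjusted p = 0.000169). In normal culture the same interaction was 1.20 (limma adjusted p = 0.13). It passed with a pseudocount of 0.1 (2.45, adjusted p = 0.017) and with the authors' fold changes (2.71, adjusted p = 3.11e-05). Within H2023 the genotype difference in enriched minus that in normal culture was 1.85 and did not pass (limma interaction adjusted p = 0.546). No gene of the table passed that test, although 7.10% of genes had an unadjusted p under 0.05 and the authors' fold changes gave 71 genes, KRT19 among them (adjusted p = 1.92e-05).

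KRT80, a type II keratin of the same chromosome 12 cluster, passed between genotypes in A549 normal culture and in no other pair of groups. It stood at 75.6 and 53.9 TPM in the wild-type libraries against 30.9 and 18.8 TPM in the knockout-labelled libraries, with no overlap, and fell by 1.37 (SE 0.28, limma adjusted p = 0.0412). In A549 in enriched culture it was low in all 4 libraries, at 7.58 and 7.55 TPM against 8.4 and 8.08 TPM. In H2023 it stood at 22.7 and 23.01 TPM against 29.9 and 27.6 TPM in normal culture, and at 0.66 and 1.56 TPM against 0.52 and 1.34 TPM in enriched culture. Only the last pair of groups overlapped. The log2 difference from wild type was -1.37 in normal and 0.11 in enriched culture of A549, an interaction of 1.48 (SE 0.34, limma adjusted p = 0.0418). Between lines in normal culture it was 0.32 in H2023 against that -1.37 in A549, an interaction of 1.69 (SE 0.39, adjusted p = 0.0154). The first call was lost when the comparison was centred on the median gene (adjusted p = 0.0524) and without any 1 of 6 of the 8 A549 libraries. The second was lost with a pseudocount of 0.1 (adjusted p = 0.066) and without any 1 of 3 libraries, namely A549 wild type 1, A549 labelled knockout 2 or H2023 labelled knockout 1, all in normal culture.

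KRT7 and KRT81 overlapped between genotypes in A549 normal culture and separated in A549 enriched culture. KRT7, the type II keratin of glandular epithelia, stood at 1929.6 and 1549 TPM in the wild-type libraries against 2486 and 1121 TPM in the knockout-labelled libraries in A549 in normal culture, where the wild-type values lie between the other 2. In A549 in enriched culture it stood at 1436 and 974 TPM against 664 and 630.2 TPM, with no overlap. That difference was -0.87 (limma adjusted p = 0.0506), just outside the threshold; it passed under 4 alternatives and in the authors' deposited table (adjusted p = 8.03e-05). In H2023 KRT7 stood at 2098 and 2863 TPM against 2355 and 2509 TPM in normal culture, and at 881 and 1146 TPM against 1213 and 1186 TPM in enriched culture, with log2 differences of -0.01 and 0.26.

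KRT81, the hair keratin that shares sequence with KRT86, stood at 1949 and 1794 TPM in the wild-type libraries against 1988 and 1276 TPM in the knockout-labelled libraries in A549 in normal culture. In A549 in enriched culture it stood at 1159 and 1175 TPM against 817 and 767 TPM, with no overlap, and fell by 0.56 (SE 0.11, limma adjusted p = 0.0338). One fit over all 16 libraries did not call it (adjusted p = 0.19). In H2023 KRT81 stood at 2844 and 2237 TPM against 2276 and 2314 TPM in normal culture, and at 996 and 577 TPM against 819 and 499 TPM in enriched culture. The groups overlapped in both H2023 cultures and in A549 normal culture.

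VIM was higher in the knockout-labelled libraries in all 4 comparisons, by 0.49 to 0.82 on the log2 scale, and passed the main test in none. In A549 it stood at 798 and 634 TPM in the wild-type libraries against 1405 and 1123 TPM in the knockout-labelled libraries in normal culture, and at 368 and 403 TPM against 574 and 512 TPM in enriched culture. In H2023 it stood at 564 and 628 TPM against 894 and 945 TPM in normal culture, and at 161 and 291 TPM against 302 and 480.1 TPM in enriched culture. Both libraries labelled knockout were above both wild-type libraries each time, a pattern shared by 1.88% of all genes. The log2 differences were 0.82 (SE 0.19, limma adjusted p = 0.0541) and 0.49 (SE 0.12, adjusted p = 0.0509) in A549, and 0.63 (SE 0.09, adjusted p = 0.134) and 0.81 (adjusted p = 0.414) in H2023. The authors' deposited table called VIM in A549 normal (adjusted p = 3.65e-06), A549 enriched (0.0119) and H2023 normal culture (1.5e-05), and not in H2023 enriched culture (0.306). In A549 normal culture it passed limma under 5 alternatives, with adjusted p from 0.0205 to 0.0477. No interaction test passed for VIM, with estimates from -0.33 to 0.32.

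The fibroblast markers COL1A1, LUM, PDGFRA and PDGFRB (4 of 7 measured) summed to 1.6 to 10.28 TPM over all libraries, and in A549 normal culture to 3.08 to 3.44 TPM in wild type and 3.77 to 4.7 TPM in the knockout-labelled libraries. LUM was at 0 in 1 library, a knockout-labelled one of A549 in normal culture. In the other 3 line and culture pairs that sum was lower in the knockout-labelled libraries, where VIM was higher. In A549 normal culture the epithelial markers EPCAM, CDH1 and CLDN7 summed to 36.8 to 55.0 TPM in wild type and 19.1 to 21.1 TPM in the knockout-labelled libraries. KRT8 and KRT18 were lower there too. In the other pairs the marker sums overlapped between genotypes. They were 80.1 to 98.9 TPM against 80.2 to 85.5 TPM in A549 enriched culture. That sum hides opposite moves. CLDN7 and EPCAM, 2 of the 3 markers, were called lower there (7.20% of all genes), with a median log2 difference of -2.33 over the 3. CDH1, the largest part of the sum, was higher in both knockout-labelled libraries. In H2023 the sums were 59.2 to 66.6 TPM against 42.9 to 63.2 TPM in normal and 47.6 to 94.0 TPM against 54.6 to 72.9 TPM in enriched culture. KRT8 and KRT18 were higher in the knockout-labelled libraries of H2023 in both cultures. The leukocyte markers (2 of 5 measured) reached higher sums than the fibroblast markers in A549. They were 9.57 to 16.25 TPM in wild type against 7.14 to 7.69 TPM in the knockout-labelled libraries in normal culture. In enriched culture they were 28.63 to 48.65 TPM against 30.47 to 35.04 TPM. The part of cell make-up in the differences between genotypes was not tested.

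These values set the A549 libraries labelled knockout in normal culture apart in the make-up of their filament transcripts. VIM was 5.47% and 6.58% of the summed TPM of VIM and the 6 keratins in wild type and 16.7% and 22.6% in the knockout-labelled libraries, while the other 12 libraries lay between 2.98% and 8.24%. Type II over type I keratin TPM was 1.74 and 2.02 in wild type and 4.64 and 4.78 in the knockout-labelled libraries, where KRT18 was the larger part of the type I sum. In H2023 the same ratio was 3.00 and 3.45 against 2.29 and 2.32 in normal culture, and 2.41 and 2.55 against 1.71 and 2.06 in enriched culture. The 6 keratins made up 1.10% and 1.13% of all TPM in A549 wild type in normal culture and 0.385% and 0.701% in the knockout-labelled libraries.

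**Figure D4:**
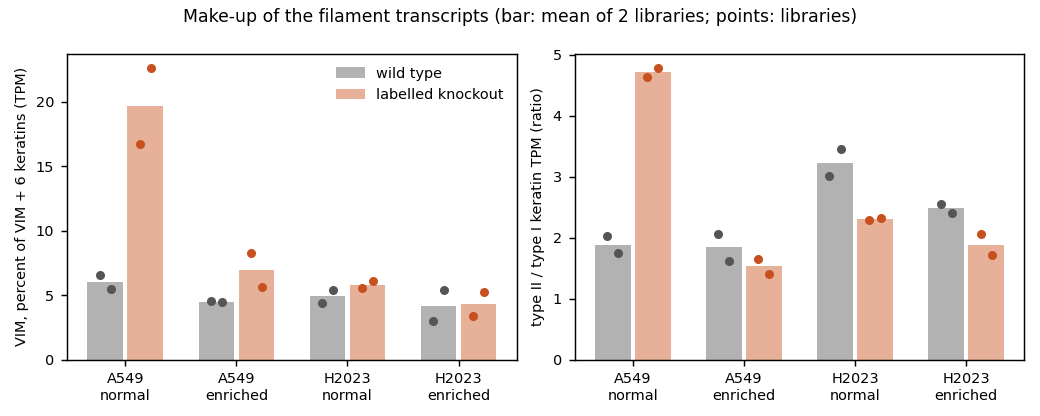
Left, VIM as a percentage of the summed TPM of VIM and the 6 keratins; right, the ratio of type II (KRT7, KRT8, KRT80, KRT81) to type I (KRT18, KRT19) keratin TPM; bars are means of 2 libraries and points the libraries, wild type in grey and labelled knockout in orange. The A549 libraries labelled knockout in normal culture stand at 16.7% and 22.6% and at ratios of 4.64 and 4.78, above every other library.

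The second question was how the members differ between the 7-day stem-cell-enriched and the 3-day normal culture. KRT80, KRT81 and VIM fell in all 4 line and genotype groups, a pattern of 5.38% of all genes, and KRT19 was higher in all 4. In A549 wild type 4 members were called, 1 higher and 3 lower, where 40.6% of genes were called (19.0% higher, 21.6% lower). In the A549 libraries labelled knockout all 7 members were called, 3 higher and 4 lower (20.8% of genes, 10.9% higher and 9.87% lower). In H2023 6 members fell in wild type (21.4% of genes, 17.4% lower and 3.96% higher), and in the knockout-labelled libraries 6 fell and 1 rose (26.9% of genes, 19.2% lower and 7.68% higher). The median gene moved by -0.18 in H2023 wild type and by -0.12 in the H2023 libraries labelled knockout, and by -0.01 in both A549 groups. The split of called genes depended on the scaling. In H2023 wild type 721 were higher and 3180 lower, against 1632 and 1263 when centred on the median gene and 1018 and 1253 without mitochondrially encoded genes. In the H2023 libraries labelled knockout 1400 were higher and 3495 lower, against 2191 and 2108 when centred and 2004 and 1964 without those genes. In A549 wild type 3460 were higher and 3932 lower, against 4145 and 3079 without them. No called member changed its direction under either scaling. These contrasts use the same libraries as the genotype comparisons above, so the 2 sets of values are not independent.

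**Figure D5:**
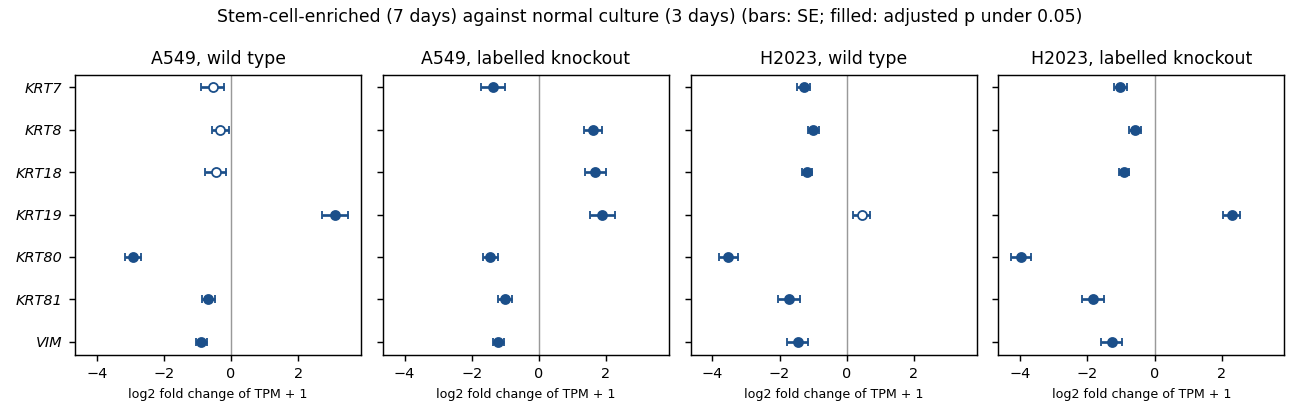
Log2 fold change (TPM + 1) of enriched over normal culture, with SE, for the 7 genes in the 4 line and genotype groups; filled points passed an adjusted p of 0.05. KRT80, KRT81 and VIM lie left of 0 in all panels and KRT19 right of 0, whereas KRT8 and KRT18 lie right of 0 in the A549 libraries labelled knockout alone.

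With the enriched culture KRT19 in A549 wild type rose to the 46.8 and 101 TPM given above from 6.11 and 8.33 TPM, a log2 rise of 3.10 (SE 0.38, limma adjusted p = 0.000542). It rose by 1.89 in the A549 libraries labelled knockout (adjusted p = 0.0106) and by 2.30 in the H2023 libraries labelled knockout (adjusted p = 0.00194), but H2023 wild type, already at 258 and 374 TPM, gained 0.44 without passing. The rise in the A549 libraries labelled knockout was lost without library 2 of either culture (adjusted p = 0.0709 and 0.0662). KRT80 was the member with the deepest fall: from 64.8 to 7.57 TPM on average in A549 wild type (-2.92, SE 0.24, adjusted p = 0.000101) and from 22.8 to 1.11 TPM in H2023 wild type (-3.53, SE 0.28, adjusted p = 0.00185). In the knockout-labelled libraries its log2 changes were -1.44 in A549 and -3.98 in H2023.

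The falls of KRT81 were -0.68 and -1.01 on the log2 scale in A549 and -1.73 and -1.84 in H2023 (wild type, then knockout-labelled). Those of VIM were -0.88 and -1.21 in A549 and -1.46 and -1.27 in H2023. The limma adjusted p of these 8 falls lay between 0.00178 and 0.0291. Without mitochondrially encoded genes the VIM estimates in H2023 were -1.21 and -1.05, and neither passed (adjusted p = 0.062 and 0.0676). That of KRT8 in the H2023 libraries labelled knockout was -0.36 (adjusted p = 0.207). The KRT81 call in A549 wild type was lost without any 1 of the 4 libraries compared, and each VIM call in H2023 without any 1 of 3 of the 4. The KRT81 call was lost without library 2 of the enriched culture in the A549 libraries labelled knockout, without 3 of the 4 libraries of H2023 wild type and without either normal-culture library in the H2023 ones labelled knockout, with adjusted p from 0.055 to 0.0823.

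KRT8 and KRT18 separated the A549 genotypes. In A549 wild type KRT8 stood at 2617 and 3188 TPM in enriched against 3626 and 3569 TPM in normal culture, a log2 difference of -0.32, and that of KRT18 was -0.46, neither passing. In the A549 libraries labelled knockout KRT8 rose by 1.61 (SE 0.27, limma adjusted p = 0.00468) and KRT18 by 1.68 (SE 0.31, adjusted p = 0.00733), from a mean of 1012 to 3039 TPM for KRT8. In H2023 both fell in both genotypes, KRT8 with log2 changes of -0.99 and -0.59 and KRT18 with -1.19 and -0.90 (wild type, then knockout-labelled). The fall of KRT8 in the H2023 libraries labelled knockout was close to the threshold (adjusted p = 0.0489), and it was lost when centred on the median gene (0.127) and without any 1 of the 4 libraries. The log2 changes of KRT7 were -1.37 in the A549 libraries labelled knockout, -1.29 in H2023 wild type and -1.02 in the H2023 libraries labelled knockout, and all 3 passed. The KRT7 difference of -0.55 in A549 wild type did not pass (adjusted p = 0.243). Leaving out 1 library ended the KRT7 calls in the knockout-labelled libraries (3 of 4 libraries in A549 and any of 4 in H2023). It also ended the KRT8 call in H2023 wild type (normal library 1 or enriched library 2) and the KRT18 call in the H2023 libraries labelled knockout (normal library 1), with adjusted p from 0.051 to 0.107.

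The lines themselves differed most in KRT19. In wild-type normal culture KRT19 was 43.8-fold higher in H2023 than in A549 (log2 difference 5.26, SE 0.34, limma adjusted p = 5.89e-07), and KRT80 was 2.84-fold lower (adjusted p = 0.00125), so 2 of 7 members were called where 41.5% of genes were. The median gene was 0.12 higher in H2023 there on the log2 scale. KRT18 was 1.59-fold lower in H2023 without passing (adjusted p = 0.0564), and it passed under 3 alternatives (adjusted p = 0.0228 to 0.0437). In enriched culture 5 of 7 were called, against 47.8% of genes. KRT19 was 5.72-fold higher in H2023 (adjusted p = 7.69e-05), and KRT18 (2.68-fold), KRT80 (6.82-fold), VIM (1.71-fold) and KRT8 (1.54-fold, adjusted p = 0.0468) were lower. The KRT8 call was lost without mitochondrially encoded genes (adjusted p = 0.0645) and without any 1 of the 4 wild-type libraries of that culture, and that of VIM without any 1 of 3 of them. Across the 8 groups KRT19 was highest in the H2023 libraries labelled knockout in enriched culture (mean 651 TPM) and lowest in the A549 libraries labelled knockout in normal culture (0.48 TPM), and no 2 neighbours in that order overlapped. VIM was highest in the A549 libraries labelled knockout in normal culture (mean 1264 TPM), above the H2023 ones (mean 920 TPM) with no overlap, and lowest in H2023 wild type in enriched culture (226 TPM). KRT8 and KRT18 were both highest in the H2023 libraries labelled knockout in normal culture (means 5680.2 and 4394 TPM) and lowest in the A549 libraries labelled knockout in normal culture (1012 and 954 TPM, the latter overlapping with H2023 wild type in enriched culture).

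Among the members, the log2 levels of KRT80 and KRT81 (r = 0.82), KRT80 and VIM (0.80) and KRT7 and KRT81 (0.79) went together over the 16 libraries, and KRT19 and VIM went apart (r = -0.62). The libraries fall into 8 groups, so these values describe the groups and carry no test. Of 14015 other genes with a symbol and a mean of at least 1 TPM, genes among the 2 most like each member over the 16 libraries were AP1M1 and TAF6 for KRT7 (r = 0.912 and 0.897), SPCS1 and MYO5B for KRT8 (0.910 and 0.893), and ENDOD1 and MYO5B for KRT18 (0.876 and 0.874). For KRT19 they were CGREF1 and TSPAN13 (both 0.965), for KRT80 CSNK2A1 (0.976), for KRT81 its neighbour KRT87P and RPL36 (0.948 and 0.942), and for VIM ILK and TLN1 (0.949 and 0.944).

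Of the other keratins in the tables, 5 type II and 4 type I genes were on the lists followed, and KRT222 was on neither. All list counts in A549 stand beside 10.8% of genes called in normal culture (4.54% higher, 6.28% lower) and 13.2% in enriched culture (6.04% higher, 7.20% lower). Of 5 other type II keratins, 1 fell in the A549 libraries labelled knockout in normal culture and 3 in enriched culture, with medians of -0.19 and -0.92 against -0.03 and 0.03 for all genes. KRT4, a keratin of stratified mucosa, changed from 5.72 and 10.9 TPM to 0.14 and 0.04 TPM in normal culture (log2 change -3.04, limma adjusted p = 0.0112). KRT83 and KRT86, hair keratins beside KRT81, fell in enriched culture (-1.25 and -0.85), at levels of at most 3.17 and 11.9 TPM. Their coding sequences were 93.4% and 94.2% identical to that of the far more abundant KRT81, which also fell there. Whether reads of KRT81 entered their values was not tested. Of 4 other type I keratins, 2 fell in normal culture (6.28% of all genes) and 3 in enriched culture (7.20%), with medians of -0.48 and -1.48. KRT15, a basal-cell keratin, changed from 23.7 and 14.8 TPM to 2.72 and 3.08 TPM in enriched culture (-2.34, adjusted p = 0.00766), KRT20 fell by 2.41 and KRT10 fell by 0.62. In A549 wild type 3 of these 4 rose with the enriched culture, where 19.0% of genes did, KRT15 by 2.83, KRT20 by 2.65 and KRT10 by 0.42.

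Genes that anchor, modify or resemble these filaments were followed from lists. All lists, those of the other keratins included, were chosen with earlier results of these data known. Of 14 desmosome and filament-linker genes, 1 rose and none fell in the A549 libraries labelled knockout in normal culture (10.8% of all genes called), and 3 fell in enriched culture (13.2%), with medians of -0.19 and -0.09. The share called in normal culture is below that of all genes. DST, which encodes a linker of filaments to hemidesmosomes, rose by 0.77 in normal culture. DSP (desmoplakin, -0.90), PKP2 (-2.22) and PKP3 (-0.64) fell in enriched culture, the last 2 encoding plakophilins. Of 7 keratin-binding and chaperone genes, none was called in normal culture, while in enriched culture BAG3 (0.61) and HSPB8 (0.62), which act together in chaperone-assisted autophagy, rose and FAM83H fell by 0.70. Of 10 other intermediate filament genes, INA (internexin) fell in normal (-1.59) and enriched culture (-0.97), PRPH (peripherin) fell by 0.83 and LMNB1 (lamin B1) rose by 0.76 in enriched culture. With the enriched culture LMNB1 (-2.56) and LMNB2 (-1.76) fell in A549 wild type, and LMNB1 (-1.54) fell in H2023 wild type.

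Transcription factors that set the epithelial state moved in both directions in A549. Of 16 such genes, 5 rose and 2 fell in the knockout-labelled libraries in normal culture (10.8% of all genes called) and 5 rose and 4 fell in enriched culture (13.2%), with medians of 0.18 and 0.29. SNAI2 (Slug), a repressor of epithelial genes, changed from 0.52 and 0.53 TPM to 8.54 and 14.1 TPM in normal culture (2.98, limma adjusted p = 0.00949) and rose by 1.43 in enriched culture. SNAI1 (Snail) rose by 1.98 in normal culture. ELF3, an epithelial ETS factor, changed from 117 and 193 TPM to 24.6 and 23.8 TPM (-2.58, adjusted p = 0.00949) and fell by 1.57 in enriched culture. In H2023 wild type ELF3 stood at 194 and 208 TPM and in the normal-culture libraries labelled knockout at 144 and 163 TPM, and no gene of the list passed there. With the enriched culture EHF, another epithelial ETS factor, rose by 3.59 in A549 and by 2.66 in H2023 wild type. Of the 16 genes, 5 rose and 3 fell with that culture in A549 wild type (19.0% of all genes higher, 21.6% lower). In H2023 wild type 1 rose and 5 fell (3.96% of all genes higher, 17.4% lower).

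Of 11 mesenchymal genes, 4 rose and none fell in the A549 libraries labelled knockout in normal culture (4.54% of all genes higher) and 5 rose and none fell in enriched culture (6.04%), with medians of 0.63 and 0.53 against -0.03 and 0.03 for all genes. TGFBI, a secreted matrix protein, changed from 471 and 622 TPM to 2216 and 1863 TPM in normal culture (1.91, limma adjusted p = 0.0112). LGALS1 (galectin-1) rose by 0.88 there, and in enriched culture SPARC, a matrix glycoprotein, rose by 4.18 (adjusted p = 0.00248). Of 12 epithelial adhesion genes, 1 fell in normal culture (6.28% of all genes lower), CDH1 (E-cadherin, -1.12, adjusted p = 0.0375), and 5 fell in enriched culture (7.20%), among them CLDN7 (-3.57), EPCAM (-2.33) and CLDN3 (-1.31). CDH1 in enriched culture stood at 73.1 and 62.4 TPM in the wild-type libraries against 84.5 and 79.0 TPM in the knockout-labelled libraries. In A549 wild type 10 of the 12 adhesion genes rose with the enriched culture and 1 fell, where 19.0% of all genes were higher and 21.6% lower. In H2023 wild type 3 rose and 1 fell, where 3.96% were higher and 17.4% lower, and the difference between lines was not tested. In H2023 no gene of any of these lists passed between genotypes.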

How the data were processed

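RNA was sequenced from 16 libraries of A549 and H2023, 8 groups of 2, made from 1 µg of total RNA with a stranded mRNA kit, per the labels' protocols. HISAT2, StringTie and GRCh38 are named in the submitters' processing notes, without roles. The authors deposited 4 tables, 1 per line and culture, whose expression columns are TPM, per the file headers. The deposited tables also give a mean normalized count (a signal over the 4 libraries), a log2 fold change with its SE, a test statistic (a score) and a p-value with its adjusted p-value, under the names DESeq2 uses, per the file headers. The sign of that score is opposite to that of the deposited log2 fold change, which gave the directions.

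Of 18361 rows, 119 identifiers occupied several rows with equal values, leaving 18227 genes; a library summed to between 991838 and 998125 TPM. A symbol was in the tables for 15590 genes, and a list of Ensembl names supplied 867 more. Depth is unknown, so no counting interval is given.

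Each comparison was fitted with limma 3.58.1 (R 4.3.3; mean-variance trend, two-sided, Benjamini-Hochberg over all 18227 genes, threshold 0.05) on log2(TPM + 1): genotypes over the 4 libraries of a line and culture, cultures and their interaction over the 8 libraries of a line, lines over all 16. Raw counts were not used here. Fold changes on this scale understate changes of low genes. The script was tested on simulated data. The alternatives were a pseudocount of 0.1, genes with a mean of at least 1 TPM, removal of 15 mitochondrially encoded genes (found by GENCODE v29 position), centring on the median gene, a replicate block, 1 fit over all 16 libraries, the authors' values, and leaving out each library.

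All 7 members are named in every comparison. Of each list of related genes, up to 3 with the largest called change in the A549 genotype comparisons or the wild-type culture comparisons are named, and for each member the 2 genes most correlated with it. Some items that this rule selects are not reported here. The members, lists and markers were chosen with earlier results of these data known. Sequences came from GENCODE v29 transcripts and RefSeq (GRCh38.p14). Marker genes without a row in the tables were not analysed here.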

Additional observations from a re-analysis of the deposited data

Results flagged for a closer look

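For 7 results the difference between knockout-labelled libraries and wild type was itself different in another culture or line, by limma's interaction test with adjustment over 18227 genes. In A549 the signed log2 difference in enriched minus that in normal culture was 1.92 for KRT8 (adjusted p = 0.0296), 2.13 for KRT18 (adjusted p = 0.033) and 1.48 for KRT80 (adjusted p = 0.0418). In normal culture that in H2023 minus that in A549 was 2.47 for KRT8 (adjusted p = 0.000868), 2.94 for KRT18 (adjusted p = 0.000558) and 1.69 for KRT80 (adjusted p = 0.0154). In each of these 6 cases the A549 normal-culture difference was below 0 and the other above 0. In enriched culture H2023 minus A549 gave 4.26 for KRT19 (adjusted p = 0.000169). The 3 results in normal culture and the 3 within A549 use the same 4 A549 normal-culture libraries.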

How the results depend on the processing

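Of the members' values past the threshold, 351 alternative fits kept the call, 92 lost it and none turned the direction. Of the values that had not passed, 558 stayed so, 38 passed and 39 changed sign. With 1 fit over all 16 libraries the genotype comparisons called 3233 and 3780 genes in A549 (normal, then enriched culture) and 546 and 1014 in H2023, with 1 member in A549 enriched and 2 in H2023 enriched culture. The authors' deposited table called 3639, 3628, 1665 and 816 genes in the same order, with 4 members in A549 enriched, 4 in H2023 normal and 2 in H2023 enriched culture. Among genes with a mean of at least 1 TPM, 4 members passed in A549 enriched and 3 in H2023 normal culture, with 481 and 6 genes in H2023 (normal, then enriched), and 2 members in the genotype by line test in enriched culture. The authors' fold changes gave 4 members there, and 1 member and 71 genes in the H2023 genotype by culture test. Without mitochondrially encoded genes the H2023 wild-type culture comparison called 2271 genes, 1018 higher and 1253 lower, against 721 and 3180 with them. Centring on the median gene turned KRT7 in A549 normal culture to 0.010, KRT8 between wild-type lines in normal culture to -0.099 and KRT7 in the genotype by line test in normal culture to -0.033. The authors' values turned these to 0.14 for the first and -0.25 for the last, and KRT81 in that test to -0.009. None of these had passed, and the cause was not tested.

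Leaving out 1 library, which leaves an arm with a lone library assumed to vary like the others, gave these counts of genes past the threshold: A549 normal culture (genotype) 0, A549 enriched culture (genotype) 0 to 38, A549 wild type (culture) 4924 to 6105, A549 labelled knockout (culture) 2010 to 2436, H2023 wild type (culture) 1697 to 2630, H2023 labelled knockout (culture) 2090 to 3171, A549 (genotype by culture) 137 to 971, H2023 (genotype by culture) 0 to 2, normal culture (genotype by line) 1175 to 1908, enriched culture (genotype by line) 1911 to 2715. The counts of members were: A549 normal culture (genotype) 0, A549 enriched culture (genotype) 0, A549 labelled knockout (culture) 4 to 6, H2023 wild type (culture) 3 to 5, H2023 labelled knockout (culture) 2 to 5, A549 (genotype by culture) 0 to 3, enriched culture (wild-type lines) 3 to 4, enriched culture (genotype by line) 1 to 3. Members without a call whose sign depended on 1 library had these ranges of the log2 estimate. In A549 normal culture (genotype) they were KRT7 -0.62 to 0.52, KRT81 -0.55 to 0.088. In A549 enriched culture (genotype) they were KRT8 -0.21 to 0.31, KRT18 -0.23 to 0.32. In H2023 normal culture (genotype) they were KRT7 -0.24 to 0.21, KRT81 -0.31 to 0.037. In H2023 enriched culture (genotype) they were KRT80 -0.44 to 0.18, KRT81 -0.64 to 0.15. In H2023 (genotype by culture) they were KRT81 -0.50 to 0.28, VIM -0.24 to 0.61. In normal culture (wild-type lines) they were KRT8 -0.092 to 0.22. In enriched culture (wild-type lines) they were KRT7 -0.52 to 0.045. In normal culture (genotype by line) they were KRT7 -0.54 to 0.61, KRT81 -0.22 to 0.41. In enriched culture (genotype by line) they were KRT80 -0.55 to 0.075, KRT81 -0.080 to 0.71, VIM -0.11 to 0.74.

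Replicate numbers 1 and 2 are shared by the groups in the labels, which do not say that a number marks a shared culture or day. Same-numbered libraries deviated together with r = 0.075 and 0.131 in A549 and 0.027 and 0.461 in H2023 (normal, then enriched culture; 14823 genes). With the replicate block, the genotype comparisons called 2109 and 2774 genes in A549 and 0 in both H2023 cultures, with 5 and 3 members in A549, VIM and KRT7 being the ones added, and KRT81 between wild-type lines in enriched culture passed (adjusted p = 0.0296). The block ended no member's call. TPM keep no depth, so the precision of low values such as KRT19 and KRT80 in their lowest groups cannot be read from them. The deposited mean normalized count over 4 libraries, both genotypes included, was 69.1 for KRT19 in A549 normal culture. It was 65.5 for KRT80 in H2023 enriched culture. Counts of single libraries are not given.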

Other observations

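KRT80 and VIM deviated together within groups (r = 0.90 over the deviations of 16 libraries, at most 8 of them independent), while KRT81 and VIM deviated in opposite directions (r = -0.60). In H2023 in enriched culture library 2 of both genotypes was above library 1 for KRT80 and VIM and below it for KRT81. Same-numbered libraries there deviated together over all genes (r = 0.461). KRT80 stood at only 0.52 to 1.56 TPM in those libraries. KRT87P, an unprocessed pseudogene in the same cluster as KRT81, was the gene whose log2 level over the 16 libraries was most like that of KRT81 (r = 0.948), and 9.04% of the 50-base stretches of KRT81 occur in it.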
